A study of Homo sapiens with 9 samples.

Results

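The BAG family and the small heat shock proteins are co-chaperones and chaperones that work with the heat shock protein HSP70. The 6 BAG genes and 4 genes that carry small heat shock protein names (HSPB1, HSPB8, HSPB11 and CRYAB) were taken by symbol and make up 10 of the 62710 genes in the table. All 10 had a mean of at least 10 normalized counts over the 9 libraries and so were among the 15230 genes tested. BAG3 and HSPB1 were higher in cells given R4VPL3-1 than in cells given its VHL-binding moiety alone, and the other 8 genes did not pass the test in that comparison.

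RNA was sequenced from A375R cells, a line derived from the A375 human melanoma line that is resistant to PLX4032, an inhibitor of mutant BRAF, and is kept in medium with that inhibitor. R4VPL3-1 is a PROTAC-like molecule that joins a ligand of the ubiquitin ligase RNF4 to a recruiter of the ubiquitin ligase VHL, and VHL-r is the VHL-binding moiety without the RNF4 ligand and linker. Cells received 10 µM R4VPL3-1, 10 µM VHL-r or the solvent DMSO, the compounds for 2 h, with 3 libraries from independent biological repeats in each group. The control libraries are labelled WT with no dose, and they are called DMSO after the design text of the series and the methods of the study. All 3 groups come from the same resistant line, so the parental line is not part of any comparison. The libraries held 26435568 to 32085626 reads assigned to genes, and values are given as normalized counts, that is reads divided by the size factor of the library. Of 6 melanocyte markers, SOX10 averaged 17547 normalized counts in DMSO, MITF 1722, DCT 1347 and PMEL 29.9. MLANA had no read in any of the 9 libraries and TYR lay between 0 and 2.14. The summed markers lay at 19999.7 to 21743.5 in DMSO, 11199 to 13900.7 in VHL-r and 9741.7 to 11777.5 in R4VPL3-1. The 6 markers of keratinocytes, leukocytes and endothelium together lay at 383.7 to 405.9, 311.2 to 344.2 and 270.8 to 318.4 in the same order. SOX10 alone averaged 17547, 10200 and 8405, and KRT14 alone 346.8, 286.6 and 250.7, so each sum mainly follows a single gene.

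HSP70 proteins hold unfolded segments of other proteins through cycles of ATP binding and hydrolysis. BAG domains bind the ATPase part of HSP70 and release ADP, and so let the client go. In BAG1 and BAG3 the rest of the protein decides where the client is sent, to the proteasome with BAG1 or to autophagy with BAG3. Small heat shock proteins hold unfolding proteins without using ATP until HSP70 takes them over, and HSPB8 works bound to BAG3. The genes for BAG3, HSPB1, CRYAB and the inducible HSP70 proteins are textbook targets of the heat shock transcription factor HSF1. HSPB11 carries the name of the family but is known mainly as IFT25, a subunit of the intraflagellar transport complex of cilia.

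Genes were called at an adjusted p of at most 0.05 in a limma fit over all tested genes. Between R4VPL3-1 and VHL-r, which differ in the RNF4 ligand and the linker that joins it, 2 of the 10 genes were called, both higher in R4VPL3-1, against 1.87% of all tested genes called, 1.14% as higher and 0.729% as lower. Between R4VPL3-1 and DMSO 4 of the 10 were called, against 24.9% of all tested genes (13.1% higher, 11.8% lower), with BAG3 and HSPB1 higher and BAG4 and BAG5 lower. Between VHL-r and DMSO 2 of the 10 were called, against 19.8% (10.3% higher, 9.51% lower), with BAG3 higher and BAG5 lower. The 3 libraries of one group lay wholly above or below those of the other for 3, 6 and 2 of the 10 genes in these comparisons, against 14.1%, 38.0% and 34.3% of all tested genes. The R4VPL3-1 group takes part in the first and the second comparison and the DMSO group in the second and the last, so these counts are not independent of each other.

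**Figure D1:**
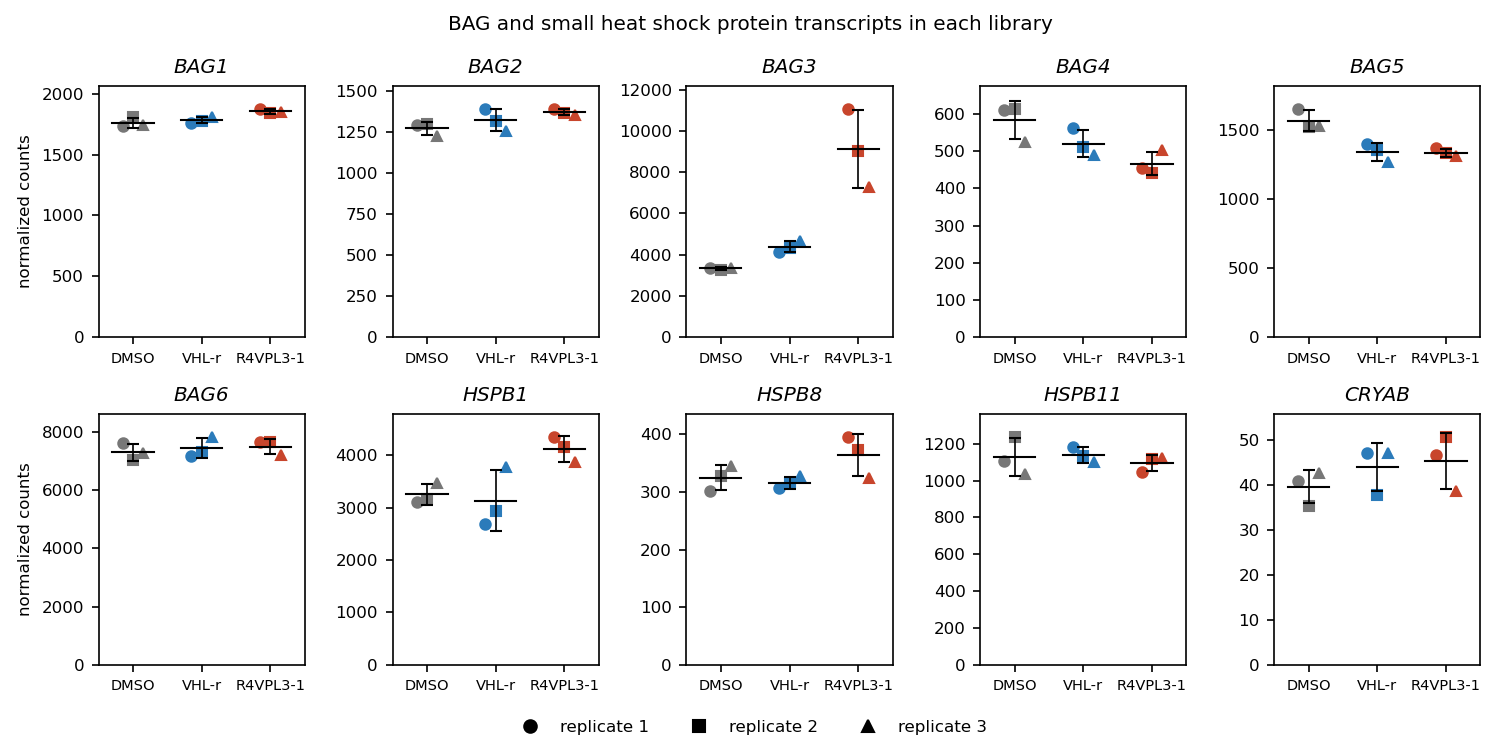
Normalized counts of the 10 genes in each of the 9 libraries, with the linear axis of each panel starting at 0; points are libraries, long bars are group means and error bars are the SD of 3 libraries. BAG3 lay at 7301.36 to 11076.95 in R4VPL3-1, above every VHL-r and DMSO library, while the panels of BAG6, HSPB11 and CRYAB show overlapping groups.

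BAG3, the BAG protein that hands clients to autophagy, showed the widest difference of the 10 genes. It lies on chromosome 10 on the plus strand (GRCh38, chr10:119651380-119677819), and its main transcript has 4 exons. In DMSO its normalized counts were 3372.54, 3262.45 and 3362.62 in replicates 1, 2 and 3. In VHL-r they were 4147.96, 4344.7 and 4670.44, and in R4VPL3-1 they were 11076.95, 9029.71 and 7301.36. The 3 groups did not overlap at any point, and the lowest R4VPL3-1 library, replicate 3, still lay above the highest VHL-r library. R4VPL3-1 stood 2.05-fold above VHL-r, a log2 difference of 1.04 (SE 0.09, 95% confidence interval 0.85 to 1.23, limma adjusted p = 1.86e-07). BAG3 ranked 55 among the 15230 tested genes when these were ordered from the highest log2 fold change in that comparison. Against DMSO it stood 2.70-fold higher in R4VPL3-1, at a log2 difference of 1.43 (95% confidence interval 1.25 to 1.62, limma adjusted p = 1.57e-10). VHL-r alone was 1.32-fold above DMSO, at a log2 difference of 0.40 (95% confidence interval 0.21 to 0.58, limma adjusted p = 0.00309). That last call was not made with the robust option of limma, where the adjusted p was 0.106. The spread within R4VPL3-1 was wide, with an SD of 1890 around a mean of 9136, against an SD of 264 in VHL-r and 60.9 in DMSO.

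The promoter of BAG3 is shown because it is the gene with the largest difference of the 10. The stretch is taken from RefSeq (GRCh38.p14, plus strand, chr10:119651130-119651429) and runs from 250 bases before the transcription start to 50 bases after it. The capitals mark a match to TGACTCA, the letters bound by AP-1 factors, which begins 19 bases before the start site. These letters were chosen for the search after the sequence had been read.
BAG3: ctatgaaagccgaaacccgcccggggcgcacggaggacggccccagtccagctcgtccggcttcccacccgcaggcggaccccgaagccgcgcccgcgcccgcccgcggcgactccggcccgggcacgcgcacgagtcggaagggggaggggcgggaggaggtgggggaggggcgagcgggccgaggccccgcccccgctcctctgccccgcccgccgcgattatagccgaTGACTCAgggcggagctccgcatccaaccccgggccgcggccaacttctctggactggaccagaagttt
Of the 10 genes 8 had an entry among the 35116 RefSeq promoters of this length, and BAG3 was the only one of the 8 with TGACTCA or its reverse complement TGAGTCA, which 4.95% of all promoters hold. No promoter among the 8 held 3 adjoining units of the heat shock element, searched as GAANNTTC followed by NNGAA or TTCNNGAA followed by NNTTC on either strand, which 0.49% of all promoters hold. A match to 2 units, searched as GAANNTTC or TTCNNGAA, was present in BAG2, HSPB1 and HSPB8, and in 13.5% of all promoters. The same search found no 3 units in any promoter of HSPA1A, HSPA1B, HSPH1 or DNAJB1. Promoters of HSPA6, HSPA8, HSP90AA1, HSP90AB1, DNAJA1 and CHORDC1 held them. So did those of DNAJB6 and of IFT172, a gene of the intraflagellar transport list. HSPA1A and HSPA1B are inducible HSP70 genes, so the lack of a match to these exact letters does not show that an element is absent. A search of this window also says nothing about elements outside it.

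HSPB1, also known as HSP27, is an abundant small heat shock protein. Its gene is short and lies on chromosome 7 on the plus strand (GRCh38, chr7:76302673-76304295), with 3 exons in its main transcript. The normalized counts were 3111.93, 3165.05 and 3477.21 in DMSO, 2687.92, 2930.78 and 3783.47 in VHL-r, and 4355.9, 4149.72 and 3864.8 in R4VPL3-1. All 3 R4VPL3-1 libraries lay above all others, but the lowest of them, replicate 3, was close to VHL-r replicate 3. HSPB1 was 1.33-fold higher in R4VPL3-1 than in VHL-r, at a log2 difference of 0.41 (SE 0.08, 95% confidence interval 0.23 to 0.59, limma adjusted p = 0.00792), and ranked 557 from the highest. The call was not made with limma's robust option, where the adjusted p was 0.24, nor with DESeq2 on recovered reads, where it was 0.124. It was also lost without VHL-r replicate 1 (adjusted p = 0.0633) or without VHL-r replicate 2 (adjusted p = 0.0821), and over all alternatives the adjusted p ran from 1.28e-05 to 0.24. Against DMSO, HSPB1 was 1.27-fold higher in R4VPL3-1 (log2 fold change 0.34, 95% confidence interval 0.17 to 0.52, limma adjusted p = 0.00448), and the robust option gave an adjusted p of 0.0806. VHL-r and DMSO overlapped, at a log2 difference of -0.07 (95% confidence interval -0.24 to 0.11, limma adjusted p = 0.659). Without VHL-r replicate 3, the highest of its group, that difference was -0.21 and was called (adjusted p = 0.021). A pseudogene, HSPB1P1, shares 6.05% of the stretches of 100 bases in HSPB1, the read length used here, so a small part of the HSPB1 reads could not be placed with certainty.

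HSPB8, also known as HSP22, forms the complex with BAG3 that feeds chaperone-assisted selective autophagy. It was measured at 301.48, 327.62 and 344.78 normalized counts in DMSO, at 306.22, 315.14 and 326.73 in VHL-r, and at 395.91, 373.09 and 324.39 in R4VPL3-1. Replicates 1 and 2 of R4VPL3-1 lay above every other library, while replicate 3 lay inside the range of the other groups. The log2 fold change between R4VPL3-1 and VHL-r was 0.20, with a 95% confidence interval of 0.0067 to 0.39 and a limma adjusted p of 0.472. Between R4VPL3-1 and DMSO it was 0.16 (-0.03 to 0.36, limma adjusted p = 0.222). The gene was called in none of the comparisons, and the upper ends of these intervals lie well below the log2 fold change of BAG3.

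The promoters of HSPB1 and HSPB8 are printed beside each other because the genes share 2-unit heat shock element letters while only HSPB1 was called. Capitals mark GAANNTTC or TTCNNGAA. The HSPB1 stretch (RefSeq, GRCh38.p14, plus strand, chr7:76302423-76302722) holds 1 match, GAAGGTTC, which begins 182 bases before the start site. The HSPB8 stretch (RefSeq, GRCh38.p14, plus strand, chr12:119178681-119178980) holds GAATATTC, which begins 88 bases before the start site, and GAAGTTTC, which begins 4 bases after it.
HSPB1: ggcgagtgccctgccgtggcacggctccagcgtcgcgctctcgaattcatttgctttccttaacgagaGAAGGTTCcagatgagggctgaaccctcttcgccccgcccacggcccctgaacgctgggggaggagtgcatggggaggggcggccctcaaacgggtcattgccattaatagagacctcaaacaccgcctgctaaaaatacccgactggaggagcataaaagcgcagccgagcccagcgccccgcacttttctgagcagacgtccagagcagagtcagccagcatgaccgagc
HSPB8: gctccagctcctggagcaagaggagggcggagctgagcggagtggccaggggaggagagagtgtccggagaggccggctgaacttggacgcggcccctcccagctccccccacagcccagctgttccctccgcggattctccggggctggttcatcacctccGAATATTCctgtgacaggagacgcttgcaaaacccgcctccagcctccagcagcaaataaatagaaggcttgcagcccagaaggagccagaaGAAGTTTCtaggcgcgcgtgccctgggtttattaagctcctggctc

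CRYAB, the alpha-B-crystallin of lens and muscle, had few reads. There were 36 to 51 of them in each library, and its normalized counts were 40.86, 35.42 and 42.59 in DMSO, 47.03, 37.82 and 47.11 in VHL-r, and 46.69, 50.74 and 38.54 in R4VPL3-1. The 3 groups overlapped. The log2 fold change between R4VPL3-1 and VHL-r was 0.04, and its 95% confidence interval of -0.38 to 0.46 was the widest among the 10 genes, so a change of the size seen for HSPB1 was not detectable at this depth. HSPB11, the intraflagellar transport subunit, lay between 1036.37 and 1238.67 normalized counts in all 9 libraries. Its log2 fold changes were -0.06 (-0.19 to 0.08), -0.04 and 0.02 for R4VPL3-1 against VHL-r, R4VPL3-1 against DMSO and VHL-r against DMSO, and none was called. Of 6 further small heat shock protein genes, only HSPB6, with a mean of 30.8, passed the filter on low values, and it was called in no comparison (log2 fold change of 0.13 between R4VPL3-1 and VHL-r). CRYAA, HSPB2 and HSPB7 had no read in any library. For HSPB2 this cannot be read as absence, since 85.29% of its exon bases lie in a read-through gene on the same strand and htseq-count leaves such reads out.

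BAG1, the founding member that links HSP70 to the proteasome and also binds BCL2, varied little. Its normalized counts were 1735.31, 1809.3 and 1742.16 in DMSO, 1763.26, 1774.23 and 1809.8 in VHL-r, and 1875.88, 1840.56 and 1849.96 in R4VPL3-1. The R4VPL3-1 libraries lay above all others without overlap, but the difference from VHL-r was small, at 0.06 on the log2 scale (95% confidence interval -0.04 to 0.16, limma adjusted p = 0.819). Against DMSO it was 0.07 (limma adjusted p = 0.288). BAG2, which inhibits the ubiquitin ligase CHIP, was measured at 1293.08, 1295.73 and 1226 in DMSO, 1388.99, 1316.23 and 1256.72 in VHL-r, and 1388.47, 1363.01 and 1353.21 in R4VPL3-1. Its VHL-r libraries overlapped both other groups, and it was called in no comparison, at a log2 difference of 0.05 (-0.06 to 0.17, limma adjusted p = 0.882) between R4VPL3-1 and VHL-r. Genes on the opposite strand, RAB23 and ZNF451-AS1, cover 44.19% of the exon bases of BAG2, and the counting used strand.

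BAG4, also known as silencer of death domains for its binding to TNF receptor 1, was lowest in R4VPL3-1. Its normalized counts were 611.13, 613.92 and 525.28 in DMSO, 561.4, 511.57 and 488.55 in VHL-r, and 454.73, 442.73 and 502.1 in R4VPL3-1. R4VPL3-1 did not overlap DMSO, and VHL-r overlapped both. Against DMSO the log2 fold change in R4VPL3-1 was -0.32 (95% confidence interval -0.49 to -0.15, limma adjusted p = 0.00692), or 0.801 of the DMSO level. Between R4VPL3-1 and VHL-r it was -0.16 (-0.33 to 0.02, limma adjusted p = 0.584), and between VHL-r and DMSO -0.16 (-0.34 to 0.01, limma adjusted p = 0.199), so neither step passed the test by itself.

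BAG5, a BAG protein known for its binding to parkin, was lower with both compounds than with DMSO. It stood at 1656.3, 1522.02 and 1531.23 normalized counts in DMSO, at 1399, 1355.09 and 1271.06 in VHL-r, and at 1369.8, 1334.16 and 1311.46 in R4VPL3-1. Both compound groups lay below DMSO without overlap, and they overlapped each other. The log2 fold change against DMSO was -0.23 in VHL-r (95% confidence interval -0.34 to -0.11, limma adjusted p = 0.00603) and -0.23 in R4VPL3-1 (-0.35 to -0.11, limma adjusted p = 0.00439). Between R4VPL3-1 and VHL-r it was -0.0026, with an interval of -0.12 to 0.11 (limma adjusted p = 0.995). These 2 differences from DMSO share the DMSO libraries. BAG6, which shields exposed hydrophobic segments and sorts tail-anchored proteins, varied little. It had a mean ± SD of 7301 ± 290 in DMSO, 7434 ± 351 in VHL-r and 7490 ± 256 in R4VPL3-1 (n = 3 each), the groups overlapped, and its log2 fold change between R4VPL3-1 and VHL-r was 0.01 (-0.08 to 0.11, limma adjusted p = 0.979).

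**Figure D2:**
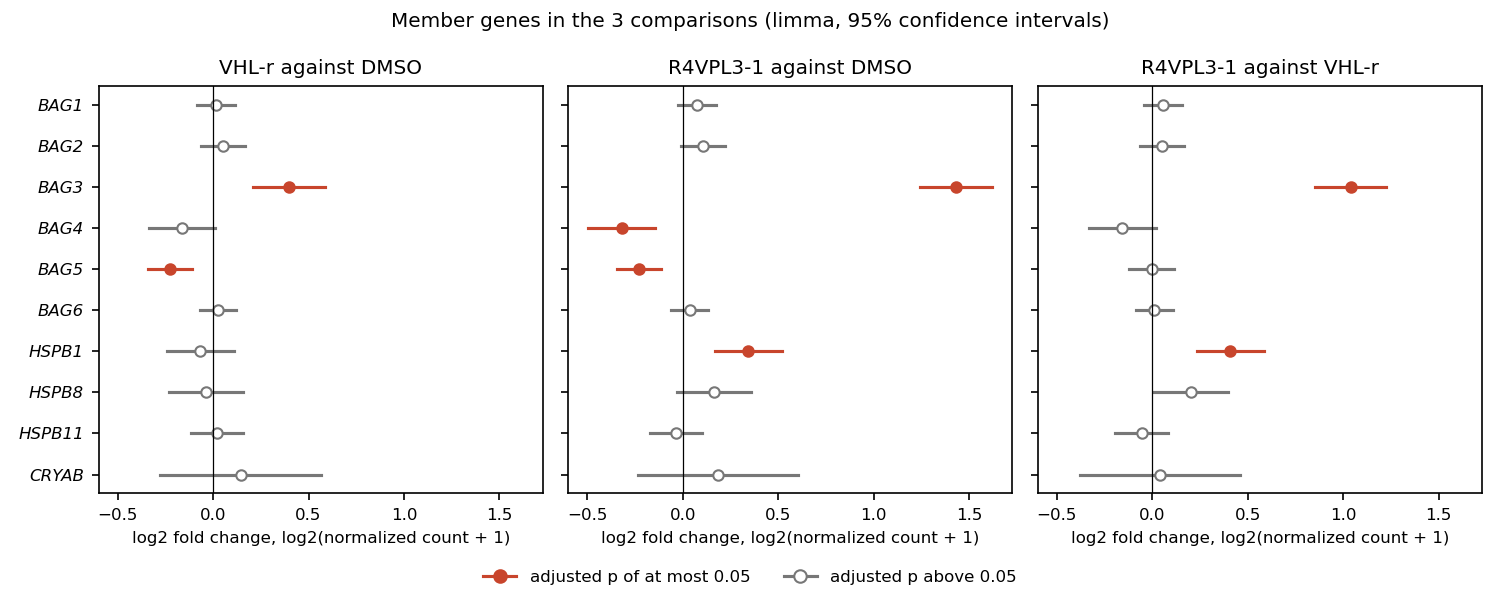
Log2 fold changes of the 10 genes in the 3 comparisons, as differences of log2(normalized count + 1), with their 95% confidence intervals from limma; filled points passed an adjusted p of 0.05. BAG3 is called in all 3 panels, from 0.40 in VHL-r against DMSO to 1.43 in R4VPL3-1 against DMSO, and HSPB1 in the 2 panels with R4VPL3-1.

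To compare levels between genes, normalized counts were divided by the length of each gene's main transcript in kilobases. In DMSO, HSPB1 stood highest at 4185 ± 254 (SD, n = 3) normalized counts per kilobase, followed by BAG6 at 1900 ± 75.5, HSPB11 at 1645 ± 150 and BAG3 at 1301 ± 23.8. BAG1 (461.3), BAG5 (335.2), BAG2 (191.2), HSPB8 (174.4), BAG4 (139.0) and CRYAB (51.2) followed. Among neighbours in this order, BAG2 and HSPB8 overlapped between libraries in DMSO, at 184.3 to 194.8 and 162 to 185.3 per kilobase. In VHL-r, BAG3 reached 1713 ± 103 per kilobase and overlapped HSPB11, which had 1664 ± 61.1. In R4VPL3-1, BAG3 reached 3567 ± 738 and stood above BAG6 (1949 ± 66.5), behind HSPB1 (5307 ± 317). The order depends on the length used: divided by all exon bases of the gene instead, the mean of BAG3 was 3338 and that of HSPB1 2541 in R4VPL3-1, with overlapping libraries (2668 to 4047 and 2381 to 2684). In DMSO, BAG3 and BAG6 then also overlapped, at 1192 to 1232 and 1111 to 1203.

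Of the summed level per kilobase of the 6 BAG genes, BAG3 made up 29.6%, 30.0% and 30.5% in the DMSO libraries and 35.3%, 36.3% and 37.1% in the VHL-r libraries. In R4VPL3-1 replicates 1, 2 and 3 it made up 58.3%, 53.5% and 49.1%. With all exon bases as the length, the share was 37.0% to 38.2% in DMSO, 43.3% to 45.6% in VHL-r and 57.6% to 66.4% in R4VPL3-1. The ratio of the BAG3 level to the BAG1 level, both per kilobase, was 2.82 ± 0.116 in DMSO, 3.67 ± 0.171 in VHL-r and 7.34 ± 1.46 in R4VPL3-1 (SD, n = 3 each). The ratio of BAG3 to its partner HSPB8 per kilobase was 7.49 ± 0.562, 10.1 ± 0.28 and 18.1 ± 2.03 in the same order. None of these 3 measures overlapped between groups, and all of them contain BAG3, so they restate its difference on the scale of its relatives.

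**Figure D3:**
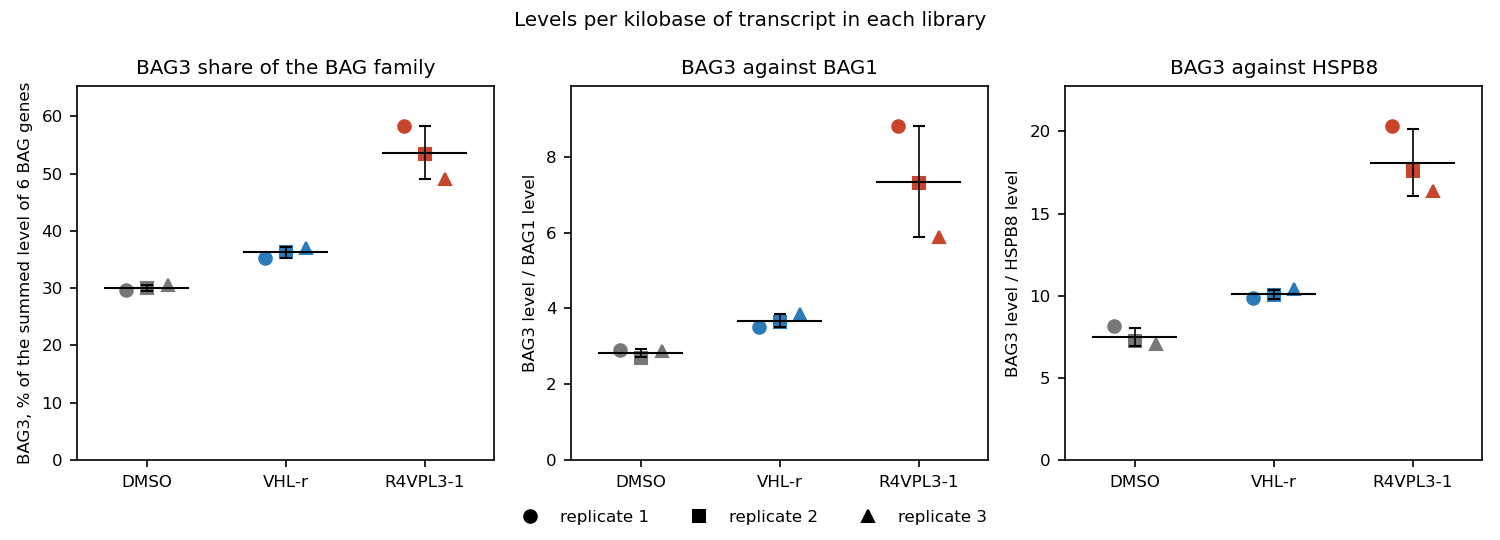
BAG3 in each library as a percentage of the summed level of the 6 BAG genes, and as a ratio to BAG1 and to HSPB8, all per kilobase of main transcript; points are libraries, long bars are means and error bars are the SD of 3 libraries. The share lies at 29.6% to 30.5% in DMSO and at 49.1% to 58.3% in R4VPL3-1, with replicate 1 highest and replicate 3 lowest in R4VPL3-1.

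The HSP70 family, which includes the proteins that BAG domains bind but is wider than these, was compared as a list of 10 genes, 9 of them tested. Between R4VPL3-1 and VHL-r 4 were called, all higher, beside 1.14% of all tested genes called higher. The median log2 fold change of the list was 0.24, beside a median of -0.0056 over all tested genes. The inducible HSPA1A averaged 609 normalized counts in DMSO, 987 in VHL-r and 16154 in R4VPL3-1, which is 4.03 on the log2 scale between the compounds (limma adjusted p = 1.83e-17). HSPA1A and HSPA1B have near-identical sequences, so reads of one could be counted for the other or be lost, and their values are uncertain as separate genes. Their sum was 744 to 822 normalized counts in DMSO, 1200 to 1560 in VHL-r and 18700 to 25200 in R4VPL3-1. The sum can also miss reads, since 36.55% of the exon bases of HSPA1B lie in another gene on the same strand. HSPA8, the constitutive HSP70 of the cytosol, averaged 97925 in VHL-r and 155660 in R4VPL3-1 (log2 fold change 0.67, limma adjusted p = 3.8e-09). HSPA9 of mitochondria was not called (0.02). Against DMSO, 7 of the 9 were called higher in R4VPL3-1 (median 0.76, against -0.0063 over all tested genes) and 4 in VHL-r (median 0.10, against -0.0045). Of all tested genes, 13.1% and 10.3% were called higher in the same order. HSPA6 had no read in any library. Within R4VPL3-1, replicate 1 was highest and replicate 3 lowest for HSPA1A (18274.22 and 13459.35), for DNAJB1, the HSP40 partner of HSP70 (56175.64 and 39199.33), and likewise for BAG3, HSPB1 and HSPB8; the part of this library difference in their values was not tested.

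The 8 other nucleotide exchange factors, which release ADP from HSP70 as BAG domains do, were all tested. HSPH1 was the only one called between R4VPL3-1 and VHL-r, at 0.49 on the log2 scale (limma adjusted p = 1.16e-06), and the median was 0.06. Under TMM scaling, edgeR and DESeq2, 2 of the 8 were called. Against DMSO 5 were called higher in R4VPL3-1, beside 13.1% of all tested genes, and 2 in VHL-r, beside 10.3%, with none lower. HSPBP1 and SIL1 were among those not called, at -0.01 and -0.05 between the compounds.

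Of 13 partners of BAG3 in chaperone-assisted selective autophagy, 12 were tested. SQSTM1, the autophagy receptor p62, was the only one called between R4VPL3-1 and VHL-r, at 0.30 (limma adjusted p = 0.00106). Its mean was 16473 normalized counts in DMSO, 18983 in VHL-r and 23343 in R4VPL3-1. Against DMSO 6 were called higher in R4VPL3-1, led by SQSTM1 at 0.50, and VPS18, a subunit of the vesicle tethering complexes, was lower at -0.40 (limma adjusted p = 0.000287). VHL-r against DMSO gave 4 higher, led by MAP1LC3B, the autophagosome protein LC3B, at 0.36. Of all tested genes, 13.1% were called higher in R4VPL3-1 than in DMSO and 10.3% in VHL-r. STUB1, the ubiquitin ligase CHIP that acts with BAG3 and is inhibited by BAG2, was not called, with 3070.7, 2881 and 2843.4 normalized counts in DMSO, VHL-r and R4VPL3-1. The median of the list was 0.0093 between the compounds.

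The list for BAG6 and the insertion of tail-anchored proteins held 8 genes, 6 of them tested, and GET4 and GET1 were listed at 0. These values cannot be read as absence. On the same strand, SUN1 covers 34.17% of the exon bases of GET4, and GET1-SH3BGR covers 13.75% of those of GET1. Reads shared in this way are left out by htseq-count. The overlaps cover only part of the exon bases, and whether they account for the values of 0 was not tested. None was called between R4VPL3-1 and VHL-r (median -0.0097). UBL4A, which binds BAG6 directly, averaged 3194 normalized counts in DMSO, 2270 in VHL-r and 2231 in R4VPL3-1. Its log2 fold changes against DMSO were -0.49 in VHL-r (limma adjusted p = 9.11e-07) and -0.52 in R4VPL3-1 (limma adjusted p = 3.15e-07), while BAG6 itself was not called. In all, 3 of the 6 were called lower in R4VPL3-1 than in DMSO and 2 in VHL-r. Of all tested genes, 11.8% and 9.51% were called lower in the same order.

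Among 9 textbook partners of BAG1, BAG2, BAG4 and BAG5, 8 were tested. SIAH2, a ubiquitin ligase, was the only one called between the compounds, at 0.35 (limma adjusted p = 0.00489). TNFRSF1A, the TNF receptor that BAG4 binds, was lower than in DMSO in VHL-r (-0.34, limma adjusted p = 2.85e-05) and in R4VPL3-1 (-0.45, limma adjusted p = 6.63e-07), but not called between the compounds (-0.10). BCL2, which BAG1 binds, was called in no comparison. The largest fall in VHL-r against DMSO was that of SIAH1, at -0.51.

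The list of heat shock factors with HSP90 and its partners held 9 genes, all tested. Among them are DNAJB1, the HSP40 partner of HSP70, and DNAJA1 of the same DNAJ family, so the list is not of HSP90 partners alone. DNAJB1 averaged 6580 normalized counts in DMSO, 10356 in VHL-r and 48176 in R4VPL3-1, and it was called in all 3 comparisons, at 2.20 between the compounds (limma adjusted p = 1.14e-13). HSP90AA1, DNAJA1 and CHORDC1 likewise passed the test as higher between the compounds, beside 1.14% of all tested genes. The list had a median of 0.31 there. Against DMSO 5 of the 9 were called higher in R4VPL3-1 and 1 in VHL-r, beside 13.1% and 10.3% of all tested genes. The factor HSF1 itself had means of 3477, 3405 and 3260 in DMSO, VHL-r and R4VPL3-1 and was called in no comparison. Of 16 genes of the intraflagellar transport complex that holds HSPB11, 13 were listed with values, 12 were tested and none was called between the compounds. IFT80 was listed at 0, and 27.58% of its exon bases lie in a gene on the same strand. Whether this accounts for the value of 0 was not tested. IFT81 was lower than in DMSO in VHL-r (-0.23) and R4VPL3-1 (-0.28), beside 9.51% and 11.8% of all tested genes called lower. IFT172 was the higher of 2 genes called higher in R4VPL3-1 than in DMSO (0.25, limma adjusted p = 0.00842), beside 13.1% of all tested genes.

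**Figure D4:**
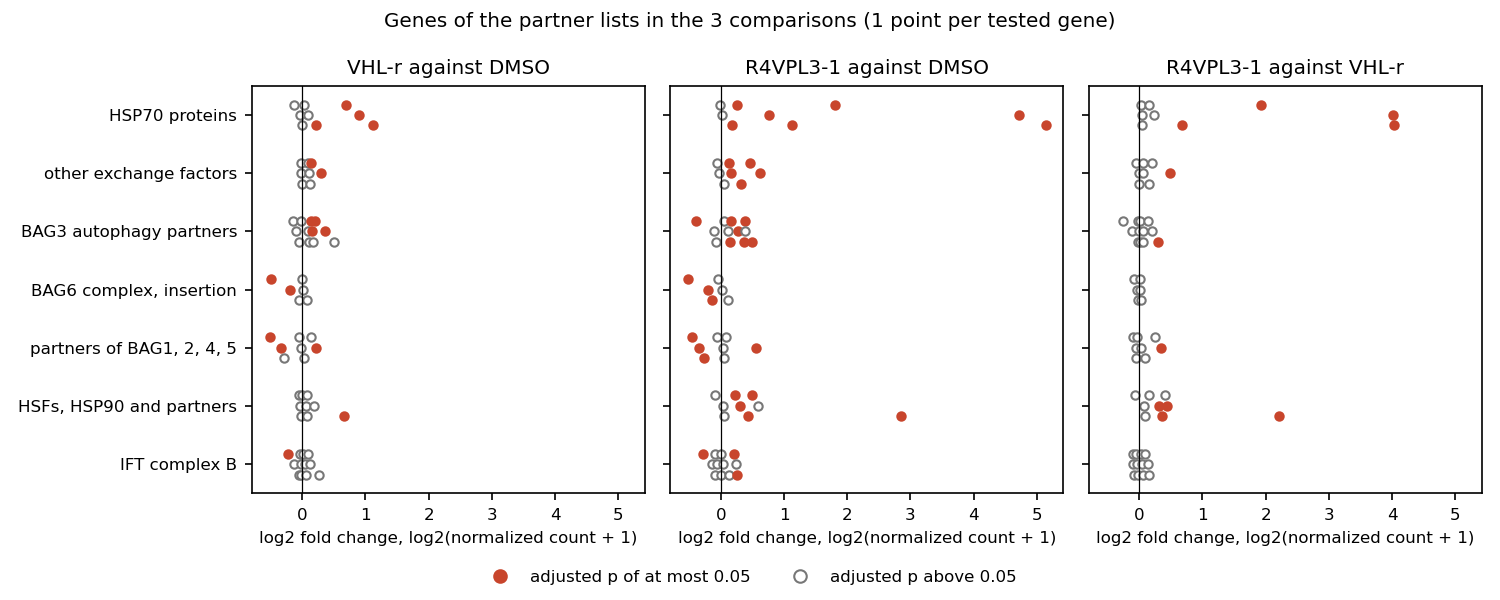
Log2 fold changes of every tested gene of the 7 partner lists in the 3 comparisons, 1 point per gene, as differences of log2(normalized count + 1); filled points passed an adjusted p of 0.05. The HSP70 proteins reach 5.14 in R4VPL3-1 against DMSO, and no gene of the BAG6 or intraflagellar transport lists is called between R4VPL3-1 and VHL-r.

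The genes whose log2 values followed those of a member most closely over the 9 libraries were found by Pearson's r, as a description, since the 9 points fall into 3 treatments. For BAG3 they were DDIT3 (r = 0.995), FTL (0.994), OSGIN1 (0.994), ANKRD37 (0.993) and DUSP1 (0.993). For HSPB1 the highest values were lower, with HTRA3 at 0.938, NCSTN at 0.937 and TEX22 at 0.936. For BAG4 they were led by ABCE1 (0.976), and for BAG5 by PPP4R1 (0.981). No HSP70 gene was among the 5 nearest to any of the 10 genes. Correlations beyond the 5 nearest were not listed, so this does not show that HSP70 genes followed BAG3 poorly. Bulk RNA of this kind cannot tell a change in RNA per cell from a change in the share of cells that express a gene.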

How the data were processed

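Poly(A) RNA from 9 cultures was read from one end with strand kept, in reads of 100 bases. As the study's methods state, the authors used STAR for alignment to GRCh38 with Ensembl genes and htseq-count in its reverse mode for counting, which leaves out reads shared by genes on the same strand, and scaled the counts with DESeq2 (1.36.0) size factors. The deposited values are this normalized signal, with 2 decimals. Dividing them by the worth of 1 read gave whole reads for 100.0% of values (tolerance 0.02 reads), with size factors of 0.9341 to 1.1012. In R4VPL3-1 replicate 2 and VHL-r replicate 1 a read is worth 0.9949 and 1.0007, so whole reads there can hardly be told from rounding.

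Differences of log2(value + 1) were tested with limma-trend (limma 3.58.1, R 4.3.3) in a single-factor fit of all 9 libraries over 15230 genes with a mean of at least 10, and called where the p adjusted by Benjamini-Hochberg was at most 0.05. A fold change on this scale understates that of low genes. The p-values rest on the spread between repeats, pooled over the 3 groups and moderated by a trend over genes. A gene therefore has the same SE in all 3 comparisons, and the spread within R4VPL3-1 also enters VHL-r against DMSO. Alternatives, 20 for each comparison, were other pseudocounts, filters and scalings, edgeR (4.0.16) or DESeq2 (1.42.0) run on the recovered reads, a replicate block, limma's robust option, the 6 libraries compared, and each library left out. The fit and the recovery were tested on simulated data. Lengths and overlaps came from GENCODE annotation, and promoters from RefSeq (GRCh38.p14).

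The members and lists were chosen with earlier results of these data known. Named are all 10 members, the called gene with the largest rise and fall of each list with up to 2 more, and the 5 genes most correlated with a member. Any further listed gene was picked with its values in view.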

Additional observations from a re-analysis of the deposited data

How the results depend on the processing

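BAG3 was called between R4VPL3-1 and VHL-r under all 20 alternatives (log2 fold change 0.89 to 1.19, adjusted p up to 0.0143) and between R4VPL3-1 and DMSO under all 20 (1.28 to 1.59). BAG4 and BAG5 in R4VPL3-1 against DMSO, and BAG5 in VHL-r against DMSO, were likewise called under all 20. The number of the 10 genes called between R4VPL3-1 and VHL-r was 1 with the robust option and 1 with DESeq2, where HSPB1 was lost, and 1 to 2 when each library was left out. Between VHL-r and DMSO it was 1 with the robust option, where BAG3 was lost, and 2 to 3 with a library left out, HSPB1 being added as lower without VHL-r replicate 3. The number of all genes called between R4VPL3-1 and VHL-r was 285, and with each library left out it ranged from 182, without R4VPL3-1 replicate 1, to 358. Called differences of single members kept their direction in all 160 alternatives and their call in 154.

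Differences near 0 that were not called changed sign. Between R4VPL3-1 and VHL-r, BAG5 was 0.0011 under TMM scaling, 0.0025 with edgeR and -0.041 to 0.0281 with a library left out, BAG6 was -0.0045 under upper quartile scaling and -0.0142 to 0.0496 with a library left out, and CRYAB was -0.0624 to 0.15 with a library left out. With a library left out, HSPB11 was -0.0949 to 0.0336 between R4VPL3-1 and DMSO, and between VHL-r and DMSO the ranges were -0.0125 to 0.0555 for BAG6, -0.21 to 0.0362 for HSPB1, -0.089 to 0.0075 for HSPB8 and -0.0384 to 0.0902 for HSPB11. Of the counts over lists, that of exchange factors between the compounds was 2 with TMM, edgeR and DESeq2, and that of the intraflagellar transport list in VHL-r against DMSO was 0 with edgeR, where limma called 1. The cause of these changes was not tested.

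With the replicate number as a block, 389 genes were called between R4VPL3-1 and VHL-r, 4241 between R4VPL3-1 and DMSO and 3451 between VHL-r and DMSO, and no call of the 10 genes changed. Libraries with the same number had correlations of deviations between -0.0056 and 0.121, over 0.1 in 2 of 9 pairs. Those with different numbers had -0.148 to 0.0982, over 0.1 in 0 of 18 pairs. Whether equal numbers mark libraries handled together cannot be told from the labels. The main fit did not take the numbers as pairs, as the single-factor model of the study did not. CRYAB has no value under the filter of a mean of at least 50. Depth limits statements mainly for CRYAB and the genes below the filter.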
